A study of Saccharomyces cerevisiae with 3 samples.

Results

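The score of each array feature after 30 min of rapamycin was set against its score in untreated cells, in budding yeast that carried myc-tagged Maf1. All features with a value in both columns were taken, 6280 of the 6399 in the table. Crosslinked chromatin was depleted of Maf1 with antibodies to the tag, and the DNA after depletion (Cy5) was hybridized against DNA of the input (Cy3) on intergenic arrays. Cells of both groups were grown in rich medium (YPD) to an optical density of 0.6 and carried the tag on Maf1. One group had no treatment, and the other received 30 min of rapamycin at 0.2 ng/ul. Another group, with 120 min at the same dose, is shown beside them. The strain background is not given in the labels. Each group has 1 deposited column, the authors' mean of 3 replicates, so no spread between arrays could be computed and no difference below has a test. The number of arrays limits the precision.

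Maf1, conserved from yeast to humans, represses RNA polymerase III (Pol III), which makes tRNAs, the 5S ribosomal RNA and a few other small RNAs. In growing yeast Maf1 is phosphorylated by kinases that include protein kinase A and Sch9, and it is largely kept out of the nucleus. Rapamycin inhibits the TORC1 kinase complex, after which Maf1 is dephosphorylated, enters the nucleus and binds Pol III. Pol III is brought to tRNA genes by the assembly factor TFIIIC, which binds within the gene, and by the initiation factor TFIIIB.

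Scores are the deposited values minus the median of their column, in score units. The labels give neither the log base nor which DNA fraction is the numerator, so the score is not read as more or less Maf1, and every difference changes sign if the ratio is turned. A difference is the score at 30 min minus the untreated score. Each feature is called by the gene or element in its identifier, which does not say which side of that gene the feature covers. A number after a hyphen, as in HXT11-0, separates features that share a gene name.

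The 2 columns ranked features in a broadly similar way, and most differences were small. Across the 6280 features the untreated and 30 min scores had a Pearson correlation of 0.55 and a Spearman correlation of 0.57, given as a description because features of one array share its hybridization. The median difference was 0.00, the quartiles were -0.25 and 0.21, and the robust SD (the median absolute deviation scaled to an SD) was 0.331. The robust SD of the scores themselves was 0.388 untreated and 0.442 at 30 min. A difference beyond 1 score unit was called large. There were 100 features above 1 (1.59%) and 104 below -1 (1.66%), together 3.25% of the features. Just inside the upper limit lay YHL026C at 1.002 and SCM4 at 1.003, and just outside it VID28 at 0.999 and VAC8 at 0.998. Just inside the lower limit lay YEL073C-0 at -1.001 and GAT3 at -1.003, and just outside it ATG36 at -0.995 and SNT2 at -0.994. Only 6 features had a value in one of these columns and not the other, namely RDN37-1, FIG1, TRM8 and LRS4-0 untreated, and MDH2 and NTYCR097W-A2 at 30 min.

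**Figure D1:**
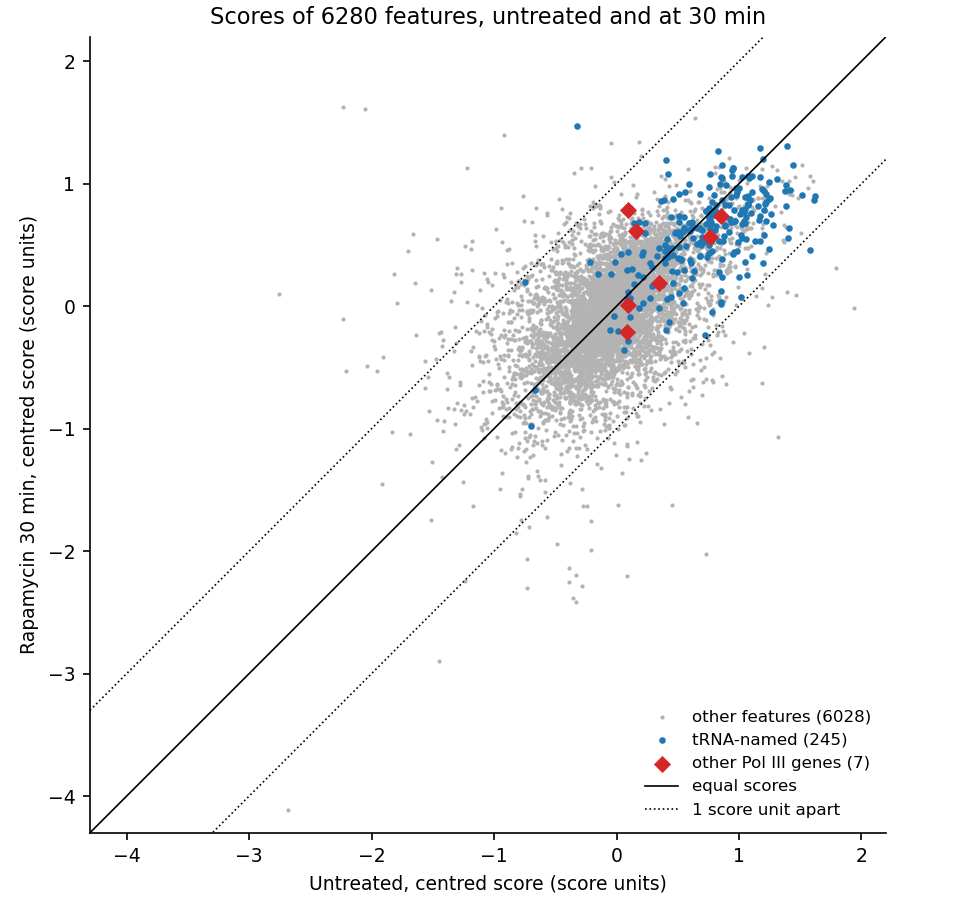
Centred score of each of 6280 features in untreated cells (horizontal, score units) and after 30 min of rapamycin (vertical, score units), 1 point per feature. The 245 tRNA-named features (blue) lie mostly in the upper right, with 163 of them under the line of equal scores, and the features with large differences lie outside the dotted lines at 1 score unit.

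tRNA genes scored high in both columns, and the median of their features was slightly lower at 30 min. Of 250 tRNA-named features 245 had both values. Their untreated scores ran from -0.75 to 1.62 with a median of 0.76, and their scores at 30 min ran from -0.98 to 1.47 with a median of 0.62. The ranges overlapped almost completely. The median difference was -0.14, with quartiles of -0.34 and 0.05. Below 0 lay 163 of the 245 features (66.5%), against 50.5% of all features. Of the tRNA-named features 1 lay above 1 and 1 below -1, where all features had 1.59% and 1.66%. The size of the shift depended on the scale given to the columns. It was -0.08 without centring, -0.19 with equal robust SDs and -0.06 after quantile normalization, and the features below 0 then numbered 139, 189 and 141.

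The course over the 3 columns was shared by many tRNA genes. At 154 of 245 features (62.9%) the 30 min score was the lowest and the 120 min score the highest of the 3. At a further 77 (31.4%) the scores stepped upward from untreated to 30 min to 120 min. Of 231 ORF-named features with a Pol III gene next at higher coordinates, 48.9% and 27.7% had these orders too. So did 36.5% and 24.2% of 244 LTR-named features. Of the 4987 features named for ORFs without a Pol III neighbour, 17.3% and 21.3% had them. ORF-named features with a Pol III gene only at lower coordinates were not counted in this way. Both orders need a high score at 120 min, where the tRNA-named features had a median of 1.46. They differ only in the sign of the 30 min difference, however small, and that sign depended on the scale as given above. The orders were counted on the centred scores only.

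Single tRNA genes spanned a wide range. The lowest difference was at tD(GUC)J2, for an aspartate tRNA, which scored 1.58 untreated, 0.46 at 30 min and 2.03 at 120 min, a difference of -1.12. Next was tS(UGA)E, for a serine tRNA, which is covered by 2 features. They scored 0.72 and 0.85 untreated and -0.24 and 0.02 at 30 min, so both were lower, by -0.96 and -0.83. The tryptophan tRNA gene tW(CCA)G2 went from 1.02 to 0.07 and the isoleucine tRNA gene tI(UAU)D from 1.40 to 0.55. The glycine tRNA genes tG(GCC)J2 and tG(GCC)P2 went from 1.20 to 0.35 and from 0.85 to 0.03. A tyrosine tRNA gene, tY(GUA)D, went from 0.78 to -0.04. Apart from tS(UGA)E, the genes in this lowest group scored above 1 at 120 min.

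At the opposite end the valine tRNA gene tV(AAC)E1 went from -0.32 to 1.47, the fourth highest score of the 30 min column, and stood at 0.82 at 120 min. Its difference of 1.80 was the only large positive one. The glutamine tRNA gene tQ(UUG)B went from -0.75, the lowest untreated score of any tRNA-named feature, to 0.20. The tyrosine tRNA gene tY(GUA)O went from 0.41 to 1.20, and the serine tRNA gene tS(GCU)O from 0.42 to 1.08. The phenylalanine gene tF(GAA)G went from -0.22 to 0.36, and the only measured tR(CCG) gene, tR(CCG)L for arginine, from 0.36 to 0.86. All 6 began below the tRNA median of 0.76. The choice by highest difference favours low untreated scores, so this is not a separate result.

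By the amino acid carried, 18 of 20 groups had a median difference below 0. The lowest medians were -0.25 for leucine (19 features) and -0.25 for tryptophan (6 features), followed by -0.22 for glycine (17 features) and -0.21 for lysine (19 features). Medians nearest to or above 0 were -0.02 for alanine (11 features), 0.00 for tyrosine (8 features) and 0.05 for cysteine (3 features). Differences also varied within anticodon families. The SD of the differences within the 40 anticodon families was 0.339, and the SD of the medians of the 25 families with at least 4 features was 0.146. Medians of several features vary less than single features, so these SDs cannot show whether the anticodon matters. In 23 of these 25 the family held both signs. The exceptions were tS(UGA), with 4 of 4 features below 0 and a median of -0.65, and tW(CCA), with 6 of 6 below 0 and a median of -0.25. The 4 tS(UGA) features carry 3 gene names and the 6 tW(CCA) features carry 5.

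For leucine the 6 tL(UAA) features had a median of -0.37 and the 10 tL(CAA) features one of -0.03. Lysine families stood closer, with -0.27 over 14 tK(CUU) features and -0.16 over 5 tK(UUU) features. Among serine families tS(AGA) had a median of -0.04 over 9 features, and tS(GCU) had 0.20 over 3 features. The 56 features of families whose genes carry an intron had a median difference of -0.09, and the other 189 one of -0.14, with 35 and 128 below 0.

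**Figure D2:**
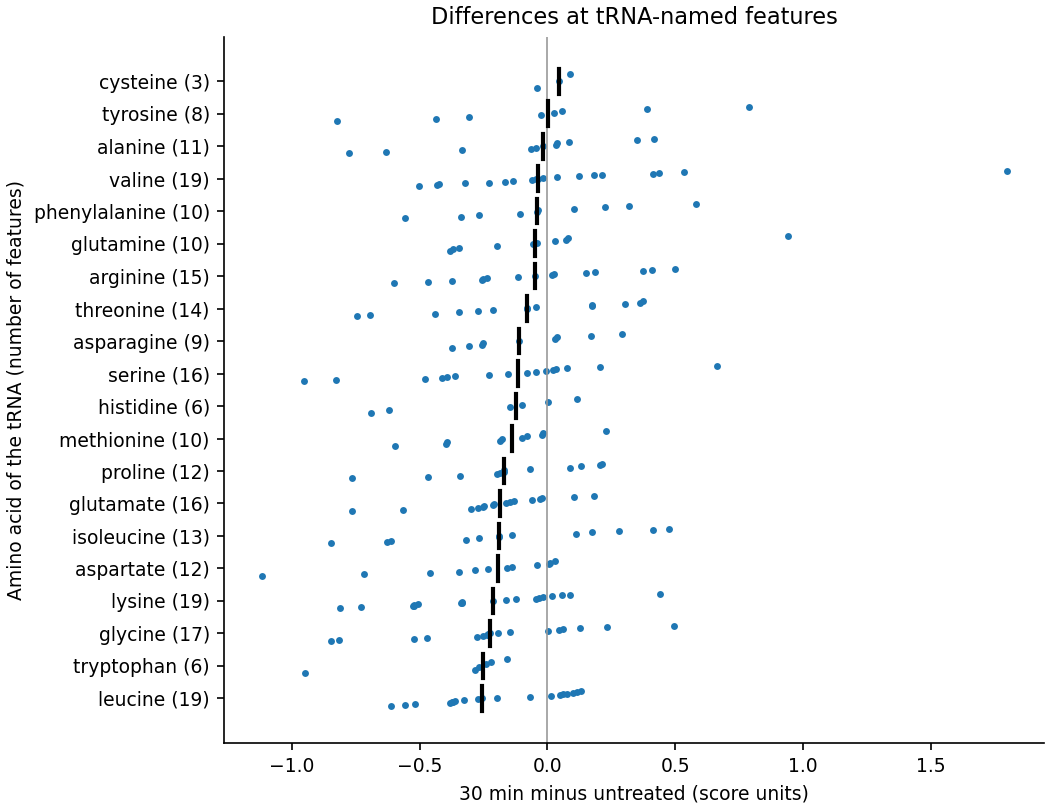
Difference of the centred score, 30 min minus untreated (score units), at 245 tRNA-named features, 1 point per feature, grouped by the amino acid of the tRNA, with the group median as a black bar. The medians run from -0.25 for leucine to 0.05 for cysteine, and the points of each larger group reach well to both sides of its median.

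On 15 of the 16 nuclear chromosomes the tRNA median lay below that of the features named for ORFs without a Pol III neighbour. The exception was chromosome VI, where the tRNA median was 0.01 over 10 features and the ORF median -0.08 over 111. The widest gaps were on chromosome IX, with -0.34 over 9 tRNA-named features and 0.11 over 188 ORF-named ones, and on chromosome I, with -0.37 over 3 and 0.04 over 94. Chromosome VII, with 34 tRNA-named features the largest set, had -0.24 against -0.05. Gaps were slight on chromosome II, with a tRNA median of -0.007 against -0.006, and on chromosome XVI, with 0.00 against 0.02.

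ORF-named features were slightly lower where a Pol III gene came next at higher coordinates, and not where it lay only at lower coordinates. ORF-named features followed, at higher coordinates, by a Pol III gene had medians of 0.53 untreated and 0.45 at 30 min over 231 features, with a median difference of -0.07 and 141 below 0 (61.0%). Without centring that median was -0.01. Where the Pol III gene lay only at lower coordinates, the median difference was 0.00 over 201 features, and the scores stood at -0.04 in both columns. ORF-named features without a Pol III neighbour had medians of -0.04 and -0.05. Whether the features of the lower-coordinate group cover the flank of the Pol III gene is not given, so a one-sided effect cannot be read from this. Long terminal repeats (LTRs) of Ty retrotransposons, many of which lie near tRNA genes, had a median difference of -0.05, or 0.01 without centring, over 244 features, with 133 below 0 (54.5%).

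Sorted by the 120 min column, which does not enter the difference, these classes came close to each other at the top. Among features that scored over 1.5 at 120 min, the median difference at 30 min was -0.19 for 121 tRNA-named features. It was -0.25 for 88 ORF-named features with a Pol III gene next at higher coordinates and -0.20 for 52 LTR-named features. Below 0 lay 87, 71 and 39 of them, or 71.9%, 80.7% and 75%. The corresponding untreated medians were 0.96, 0.87 and 0.94, and the medians at 30 min were 0.78, 0.63 and 0.76. Only 7 features named for ORFs without a Pol III neighbour scored this high at 120 min. At 120 min scores of 1 to 1.5 the median was -0.13 for 74 tRNA-named features. It was 0.00 for 48 ORF-named ones with a Pol III gene next at higher coordinates and 0.01 for 23 LTR-named ones. From 0.5 to 1, the 467 features named for ORFs without a Pol III neighbour had a median difference of 0.12, with 28.7% below 0, and the 36 tRNA-named features one of -0.03.

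**Figure D3:**
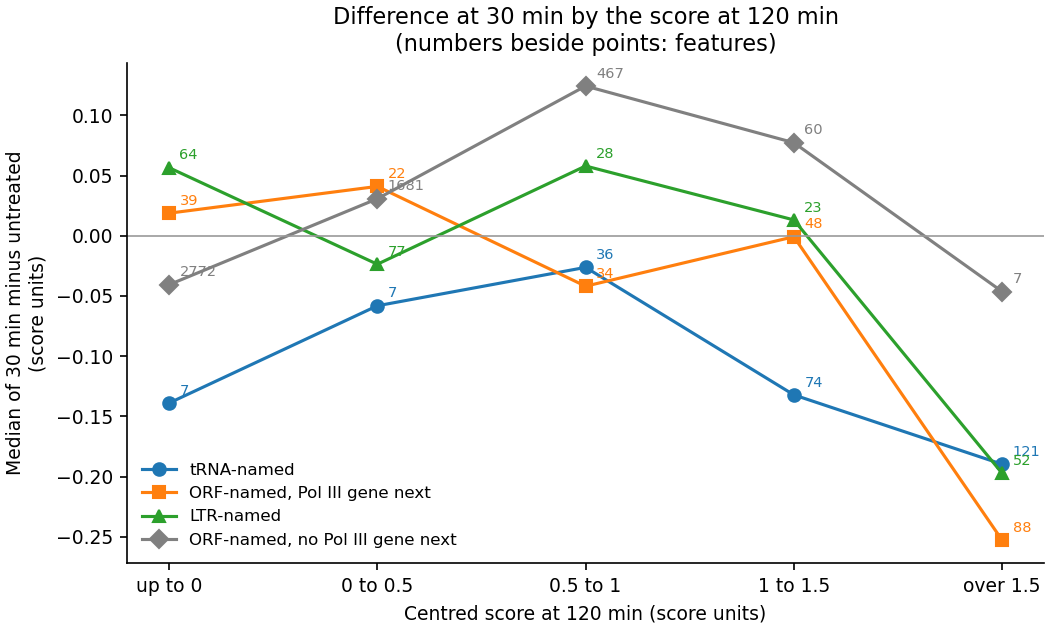
Median difference, 30 min minus untreated (score units, vertical), of 4 classes of features sorted by their centred score at 120 min (horizontal, 5 ranges), with the number of features beside each point. In the highest range, tRNA-named and LTR-named features, and ORF-named ones with a Pol III gene next at higher coordinates, stand between -0.25 and -0.19. The points that rest on 7 features carry little weight.

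The untreated score was tied to the difference in the same features, as it must be in part, since it enters the difference. In tRNA-named features with untreated scores above 1, the median went from 1.17 to 0.82 at 30 min over 64 features. With untreated scores of 0.5 to 1 it went from 0.76 to 0.64 over 114 features, and with 0 to 0.5 from 0.35 to 0.36 over 57 features. Features named for ORFs without a Pol III neighbour and with untreated scores of 0.5 to 1 went from 0.62 to 0.17 over 218 features. The 19 such features above 1 went from 1.19 to 0.31. LTR-named features resembled the tRNA genes, going from 0.78 to 0.63 over 63 features in the lower of these ranges and from 1.18 to 0.87 over 22 features above 1. ORF-named features with a Pol III gene next at higher coordinates went from 0.73 to 0.54 over 87 features. Those above 1 went from 1.21 to 0.77 over 33 features.

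The other Pol III genes did not share one direction. Lower at 30 min were SCR1, whose RNA is part of the signal recognition particle, with 0.76 untreated and 0.56 at 30 min, and RPR1, the RNA of RNase P, with 0.85 and 0.74. The features of 5S genes, RDN5-1, RDN5-2 and RDN5-3, went from 0.09, 0.34 and 0.09 to -0.21, 0.19 and 0.01. These 5S genes are near-identical repeats, and hybridization may not tell them apart. SNR6, for the U6 spliceosomal RNA, went from 0.09 to 0.79, and SNR52, for a small nucleolar RNA, from 0.16 to 0.62. SNR6 then reached 1.92 at 120 min, whereas SNR52 stood at 0.29. None of the 7 passed 1 score unit, against 3.25% of all features, and 5 of 7 were below 0, against 50.5%. Their median difference was -0.12, or 0.17 without repeated elements, which leaves out the 5S genes.

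LTR families had medians on both sides of 0. The 200 delta elements of Ty1 and Ty2 had a median difference of -0.05. Of these 4 lay above 1 and 4 below -1, against 1.59% and 1.66% of all features. The 21 tau elements had -0.13, the 13 sigma elements -0.17 and the 10 omega elements 0.15. The delta elements with the highest differences were YNLWdelta4, from -0.57 to 0.76, and YHRCdelta12, from 0.19 to 1.34. YNLWdelta4 scored 1.63 at 120 min and YHRCdelta12 only 0.12. The lowest were YDRWdelta30, from -0.24 to -1.63, and YGRWdelta19, from 1.04 to -0.22. The single feature named for a Ty element itself, YDRCTY1-2, went from 0.64 to 1.53, the third highest score of the 30 min column, and stood at 1.66 at 120 min. LTR copies resemble each other, so their features may share hybridization.

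ORF-named features are 5700 of the 6280 and made up 95 of the 100 differences above 1 and 99 of the 104 below -1, close to their share of the array. The highest was at IPT1, an enzyme of complex sphingolipid synthesis, which scored -2.23 untreated, 1.62 at 30 min and 0.19 at 120 min. OM14, for a mitochondrial outer membrane protein, scored -2.06, 1.61 and 0.68. These 2 features held the highest scores of the 30 min column after some of the lowest untreated ones. DIP5, a permease of dicarboxylic amino acids, went from -2.76 to 0.10 and stood at -1.10 at 120 min. RIT1, a tRNA-modifying enzyme that acts on initiator tRNA, went from -0.92 to 1.40 and stood at -0.39 at 120 min. Its next gene at higher coordinates is the tRNA gene SUP8. RPS16A, a ribosomal protein gene, went from -1.22 to 1.13. SHM2, of one-carbon metabolism, went from -1.64 to 0.19, GPP2, of glycerol synthesis, from -0.94 to 0.81, and the AAA ATPase gene CDC48 from -1.24 to 0.49.

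On the lower side SCS2, an endoplasmic reticulum membrane protein, scored 0.73 untreated, -2.02 at 30 min and -0.09 at 120 min. BRE1, a ubiquitin ligase for histone H2B, scored 1.32, -1.07 and -0.03. GET1, which helps insert tail-anchored membrane proteins, scored 0.45, -1.63 and -1.10. NPR1, a kinase downstream of TORC1 that controls nutrient permeases, had the highest untreated score of the whole column, 1.94, with -0.02 at 30 min and 0.90 at 120 min. SCC4, of the cohesin loader, went from -0.21 to -1.99, and CYC7, a cytochrome c isoform, from -0.39 to -2.13. THI5, of thiamine synthesis, MRP20, of the mitochondrial ribosome, and NCB2, of a TBP-binding repressor, began at -0.33, -0.36 and -0.28 and stood at -2.41, -2.39 and -2.28. SCO1, a copper chaperone of cytochrome oxidase, went from -0.39 to -2.25. The lowest scores of the 30 min column were -4.11 at KIN2, a protein kinase, and -2.90 at SRN2, an ESCRT subunit. Both were already low untreated, at -2.68 and -1.45, and again at 120 min, at -2.90 and -1.65.

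**Figure D4:**
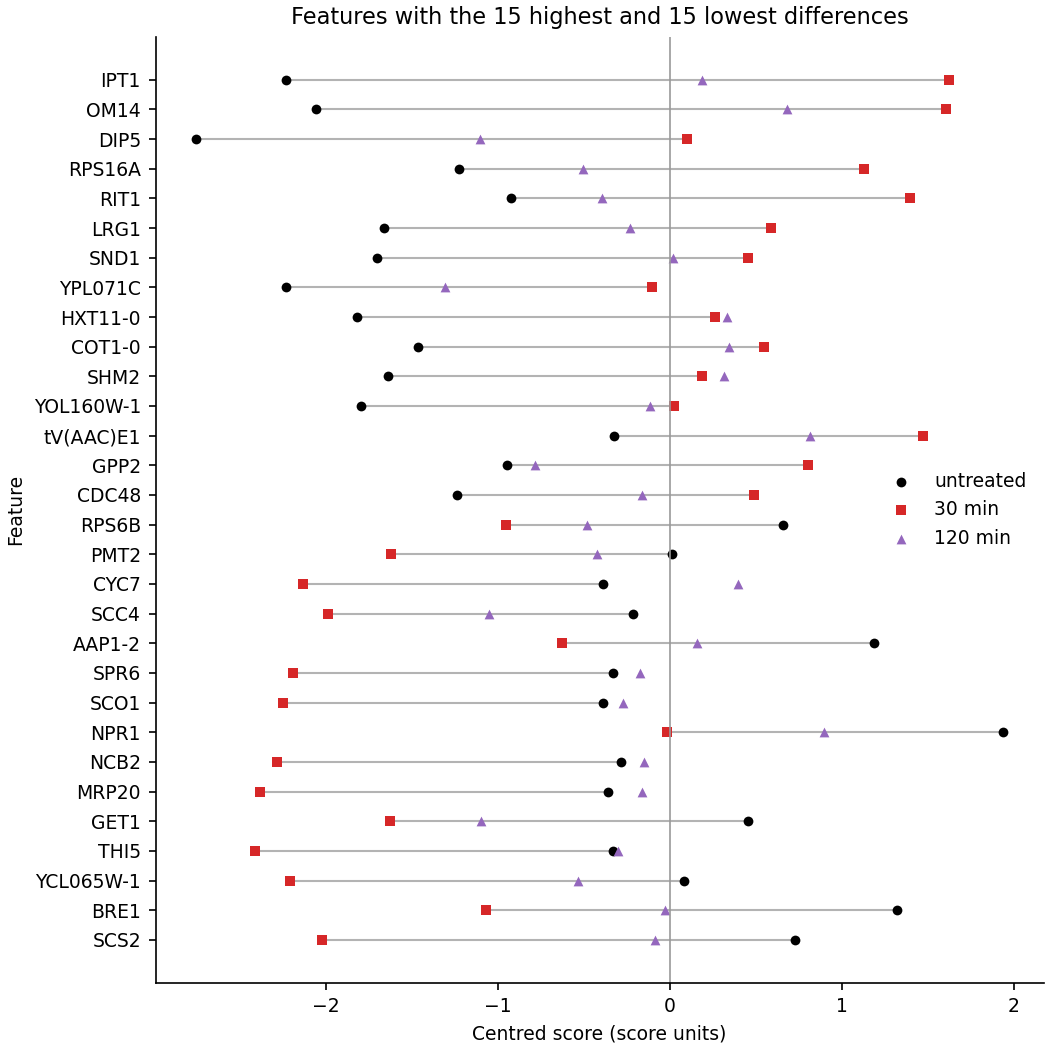
Centred scores (score units) untreated, at 30 min and at 120 min of the features with the 15 highest (upper rows) and 15 lowest (lower rows) differences at 30 min. In 12 of the upper 15 the untreated score lay below -1, and in 12 of the lower 15 the 30 min score did, with the 120 min score often between the other values.

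Large differences arose from scores at many levels. Of the 100 features above 1, 44 had an untreated score below -1 and 13 a 30 min score above 1. Of the 104 below -1, 39 had a 30 min score below -1 and 14 an untreated score above 1. The 120 min score is a separate measurement. It was nearer to the 30 min score than to the untreated score in 53 of the 100 and in 56 of the 104. Split by which score was extreme, it was mostly nearer to the other one. With untreated scores below -1 it was nearer to 30 min in 32 of 44. With 30 min scores below -1 it was nearer to untreated in 30 of 39. With 30 min scores above 1 it was nearer to untreated in 9 of 13. With untreated scores above 1 it was nearer to 30 min in 11 of 14. The 120 min score lay between the other scores in 73 of the 100 and in 72 of the 104. Features chosen for a gap of over 1 score unit leave much room between, so these counts say little about rapamycin.

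Features that share an ORF name had differences of opposite sign about as often as of the same sign. For 197 ORFs covered by more than one measured feature, the first and last features had differences of the same sign in 98 cases (49.7%). The correlation between them was -0.12 for the difference, 0.08 for the untreated score and 0.18 for the 30 min score, as a description across ORFs of the same arrays. Such features cover different stretches, so equal values are not implied. Of the 24 features with a large difference among them, none had a partner past the limit in the same direction, which says little where 1.59% and 1.66% of all features pass the limits. HXT11-0, beside a hexose transporter gene, differed by 2.08 and HXT11-1 by -0.22. COT1-0, beside a vacuolar metal transporter gene, differed by 2.01 and COT1-1 by -0.50. AAP1-2, beside an aminopeptidase gene, differed by -1.82, and AAP1-0 and AAP1-1 both by 0.07. At YCL065W the features differed by -0.03 and -2.29.

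The 6 tRNA genes covered by 2 features gave the same sign in 4 cases. tE(CUC)D was lower in both, by -0.76 and -0.21, and so was tW(CCA)K, by -0.16 and -0.29. tP(UGG)L was higher in both, by 0.09 and 0.20. tV(AAC)G3 and tV(AAC)K1 had opposite signs, with 0.54 and -0.02 and with 0.22 and -0.42. In each of these genes except tS(UGA)E one feature scored much lower than the other in untreated cells, for example 0.81 and -0.70 at tW(CCA)K.

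The share of large differences varied with the direction of the flanking genes, and not in the same way on both sides. Features named for ORFs without a Pol III neighbour were sorted by the strands of the named ORF and of the next gene at higher coordinates, from RefSeq assembly R64. Whether a feature lies between that pair of genes is not given. For divergent pairs, whose promoters face each other, 67 of 1315 features passed 1 score unit (5.10%). For tandem pairs it was 79 of 2348 (3.36%), and for convergent pairs, whose ends of transcription face each other, 21 of 1234 (1.70%), against 3.25% of all features. Features of divergent pairs passed in both directions, with 34 above 1 and 33 below -1. The robust SD of the difference was 0.373 for divergent, 0.323 for tandem and 0.286 for convergent pairs. The same order held for the untreated scores, at 0.390, 0.379 and 0.319. At 30 min divergent and tandem pairs were close, at 0.437 and 0.440, with 0.349 for convergent pairs. Sorted by the next gene at lower coordinates instead, the shares were 2.34% for divergent and 3.97% for convergent pairs. Both sortings are tied through the strand of the named ORF. Divergent pairs at higher coordinates and convergent pairs at lower coordinates need that ORF on the same strand, so the reversed order is not a separate result. The length and base composition of the features were not analysed here, and their part in these spreads was not tested.

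Genes of the Pol III machinery had no common direction. Of 17 features of Pol III subunits 11 were above 0 and 6 below, with a median difference of 0.06. RPC53, a subunit that acts in termination and reinitiation, went from -1.12 to 0.13. It was the only 1 of the 17 past 1 score unit, against 3.25% of all features. RPC17, a subunit of the stalk, went from 0.13 to 0.48 and RPC25, its partner, from -1.09 to -0.70. The largest subunits RPO31 and RET1 differed by 0.16 and 0.08. RPC82, RPC34 and RPC31, which form a subcomplex for initiation, differed by -0.13, 0.06 and -0.20. Among 9 features of TFIIIA, TFIIIB and TFIIIC the median was -0.06. The TFIIIB genes BRF1, BDP1 and SPT15 differed by -0.42, -0.20 and -0.12. The TFIIIC genes TFC8, TFC7, TFC3 and TFC6 differed by 0.51, 0.47, 0.23 and 0.17, and TFC4 by -0.21. The gene of TFIIIA, PZF1, differed by -0.06.

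The gene of Maf1 was higher at 30 min, and the genes of its regulators lay on both sides of 0. MAF1 itself went from -0.37 to 0.33 and stood at 0.03 at 120 min. Of 25 features in that list 16 were above 0, the median difference was 0.11, or 0.17 without centring, and none passed 1 score unit, against 3.25% of all features. SCH9, a kinase activated by TORC1 that phosphorylates Maf1, went from -0.30 to 0.67. BCY1, the inhibitory subunit of protein kinase A, went from -0.80 to 0.16, and TPK2, a gene of a catalytic subunit, differed by 0.13. MSN5, the exportin that carries Maf1 out of the nucleus, went from 0.05 to -0.48. CKB1, a regulatory subunit of casein kinase 2, went from 0.30 to -0.33, and CKA1 and CKA2, its catalytic subunits, differed by 0.20 and 0.09. The phosphatase genes PPH21, PPH22 and PPH3 differed by 0.04, -0.23 and -0.02.

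In the wider TORC1 list the median over 38 features was -0.01, with 22 below 0. NPR1 and MTC5, of the SEA complex that acts on TORC1, were past -1, with differences of -1.96 and -1.33, against 1.66% of all features. SEA4, of the same complex, went from 0.88 to 0.04. TOR1 and TOR2, the kinase genes, differed by -0.44 and -0.14, KOG1 and LST8, of the complex around them, by -0.01 each, and FPR1, whose product binds rapamycin, by -0.05.

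Lists of genes whose transcription is known to answer to TORC1 had medians near 0, with the highest, 0.17, for the Pol I machinery. The 127 features of cytosolic ribosomal protein genes had a median difference of 0.01, with 63 below 0 and 64 above. RPS6B, RPL12A and RPL37B differed by -1.61, -1.57 and -1.13, and RPS16A, RPL38 and RPS4B by 2.35, 1.10 and 0.99. Ribosome biogenesis genes had a median of 0.06 over 94 features, with 59 above 0 (62.8%) against 49.5% of all features, and 0.12 without centring. Among them UTP8 and MAK21 differed by 1.42 and 1.37, and NOB1 and DIP2 by -1.53 and -1.41. The Pol I machinery had 0.17 over 14 features, with RRN7 at 0.97 and RRN10 at -0.62. Its quartiles were -0.05 and 0.31, and 8 features were above 0 (57.1%), against 49.5% of all features. Genes under nitrogen catabolite repression had 0.00 over 47 features, stress genes of Msn2 and Msn4 0.05 over 46, and genes of amino acid synthesis 0.06 over 58. Among these HIS4, of histidine synthesis, went from 1.46 to 0.09, and HSP42, a small heat shock protein gene, from -0.27 to -1.64. GRE1, a stress-induced gene, went from -0.67 to 0.58.

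The list with the most uniform direction was glycolysis, with 18 of 21 features above 0 (85.7%), against 49.5% of all features. Its median difference was 0.18. It is the extreme of many lists compared, without a test. The 21 features carry 18 gene names, and with features of one name averaged the median was 0.29. The scores themselves were ordinary, with a median of -0.15 untreated and 0.04 at 30 min. CDC19, the pyruvate kinase gene, went from -0.61 to 0.22 and TDH1, a glyceraldehyde phosphate dehydrogenase gene, from -0.14 to 0.56. The phosphofructokinase genes PFK1 and PFK2 differed by 0.48 and 0.51, and the pyruvate decarboxylase gene PDC1 by 0.49. HXT1, a glucose transporter gene in this list, went from -1.31 to -0.30. It was the only 1 of the 21 past 1 score unit, against 3.25% of all features. FBA1, the aldolase gene, was lower by -0.74, ENO2 by -0.30 and PGI1 by -0.08. In the list of 20 hexose transporter and sensor genes, which shares HXT1 and HXT3, the median over 29 features was 0.02.

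Other lists leaned weakly to one side or to none. Aminoacyl-tRNA synthetase genes had a median of -0.12 over 19 features, with 13 below 0. GUS1, for the glutamyl enzyme, went from -0.32 to -1.22, and GRS1, for the glycyl enzyme, from -0.86 to 0.20. Genes of small nuclear or nucleolar RNAs made by RNA polymerase II had -0.12 over 40 features. Of these 24 were below 0, against 50.5% of all features, and none passed 1 score unit, against 3.25%. The lowest of them, SNR7-S, SNR190 and SNR13, differed by -0.74, -0.68 and -0.65. Genes of tRNA processing and export had -0.02 over 31 features, proteasome subunits 0.06 over 35, autophagy genes -0.02 over 36, amino acid permeases -0.05 over 20 and mitochondrial ribosomal proteins 0.00 over 64. Retrograde response genes had -0.07 over 14 features, where BMH1, a 14-3-3 protein gene, went from -0.57 to -1.72. Histone genes had 0.12 over 11 features, with the centromeric histone gene CSE4 at -1.02. Genes of cohesin, condensin and silencing had 0.06 over 20 features, and G1 cyclins and their regulators -0.01 over 16, where SWI4, a G1 transcription factor gene, went from -0.93 to 0.52.

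**Figure D5:**
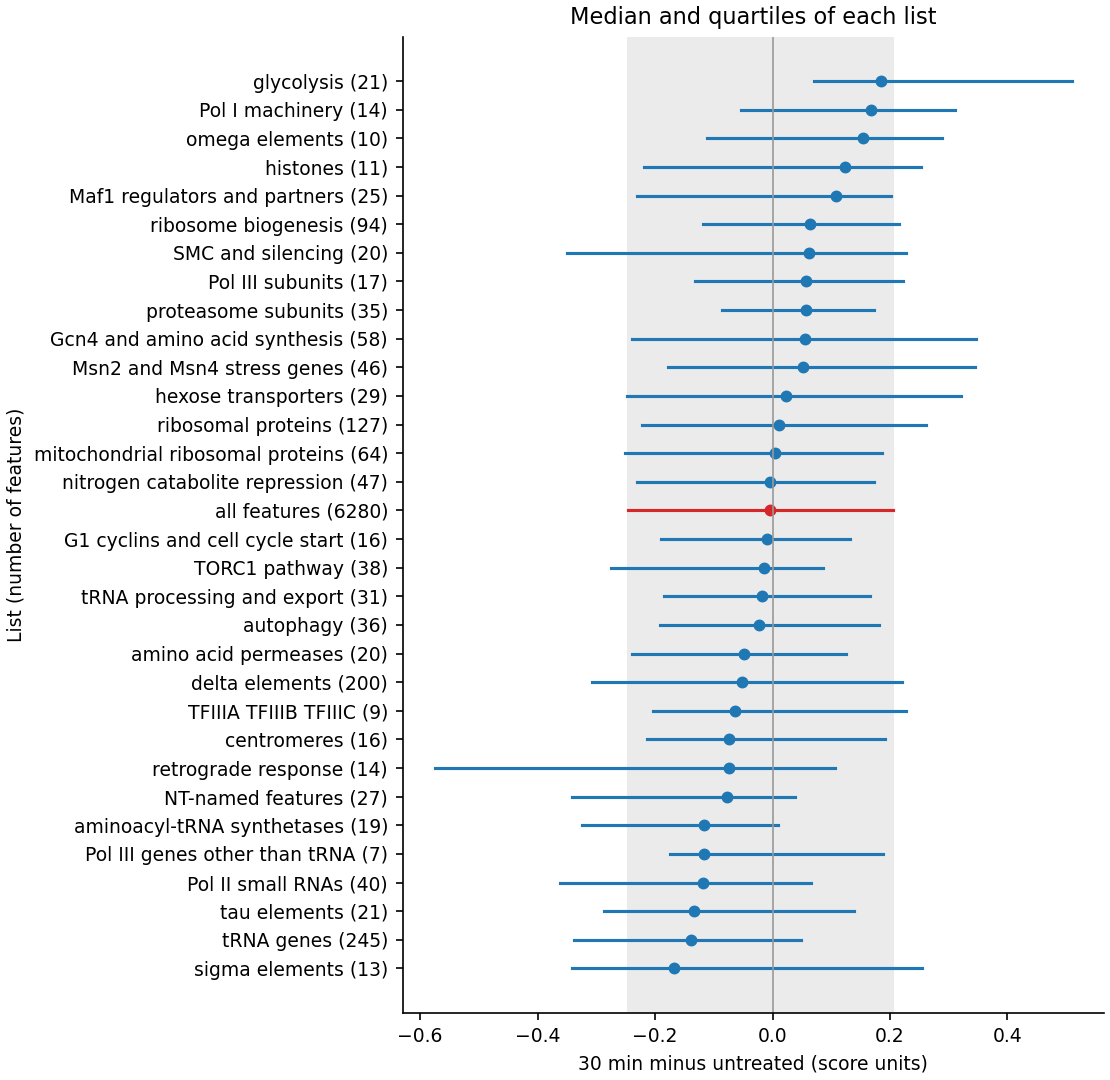
Median (point) and quartiles (line) of the difference, 30 min minus untreated (score units), in each list, with the number of features in brackets and all 6280 features in red. The grey band spans the quartiles of all features, -0.25 to 0.21, and every list median lies inside it.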

How the data were processed

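The deposited scores come from chromatin immunodepletion on 2-colour arrays. Per the labels, the authors normalized them to a gene list and averaged 3 replicates per column. Its members, and how background and spots were treated, are not given in the labels or files. Separate cultures are not stated.

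Both columns were centred on their medians and subtracted per feature (Python 3.11.15, pandas 2.3.3, NumPy 2.4.6). With 1 column per group no test was possible, and "higher" and "lower" give the sign of a difference. A limit of 1 score unit set large differences. RefSeq R64 gave symbols and neighbouring genes for 5525 of 5806 ORF-named features. The subtraction was tested on simulated data.

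The comparison, members and lists were chosen with earlier results of these data known. Named features were the 15 highest and 15 lowest differences, the 8 highest and lowest tRNA-named ones, the 5 highest and lowest scores at 30 min, the extremes of each list, other Pol III genes and MAF1. Features sharing an ORF or tRNA gene name, neighbours at the limit, families and members given for their role were added after their values were seen, as was the sorting by flanking strands and by the 120 min score. No genome sequence was used here.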

Additional observations from a re-analysis of the deposited data

How the results depend on the processing

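Alternatives were no centring, centring on ORF-named features, centring by chromosome, equal robust SDs, quantile normalization, features with all 3 values, features of one name averaged, no repeated elements and other limits. A list median was taken as moved when it left its 95% order-statistic interval over features, which does not cover the spread between arrays. The tRNA median of -0.14 moved to -0.19 with equal robust SDs and to -0.056 after quantile normalization. Without centring the medians were 0.17 for Maf1 regulators, 0.048 for the TORC1 list, 0.12 for ribosome biogenesis, and -0.013, 0.066 and 0.071 for ORF-named features with a Pol III gene at higher coordinates, at lower coordinates only and with none. With a limit of 0.5 there were 558 features with a change above the limit and 648 features with a change below minus the limit. A count was taken as moved past a factor of 1.5. Without centring, 135 features lay above 1 and 82 below -1, in place of 100 and 104, within that factor. The other 301 pairs of a list median or count with an alternative stayed within their limits, but several medians near 0 changed sign. Without centring these were 0.01 for LTRs and for delta elements alone, 0.04 for autophagy, 0.01 for amino acid permeases, 0.05 for G1 cyclins, 0.06 for nitrogen catabolite repression and 0.04 for tRNA processing, besides the TORC1 list above. Nitrogen catabolite repression and tRNA processing also moved to between 0.00 and 0.01 under other scalings. Without repeated elements the Pol III genes other than tRNA genes had 0.17 in place of -0.12, and with features of one name averaged the ORF-named features with a Pol III gene at lower coordinates only had -0.01. No paired analysis was possible because each group has 1 averaged column. Leaving out replicates was not possible for the same reason.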

Other observations

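The centromere features had medians near the column median in both columns, with single scores on both sides. Untreated scores ran from -0.58 at CEN11 to 0.70 at CEN9, and 30 min scores from -0.68 at CEN12 to 0.50 at CEN3. The 16 features had a median score of 0.05 untreated and 0.06 at 30 min, and differences from -0.70 at CEN12 to 0.49 at CEN2, with 10 below 0. CEN12 went from 0.02 to -0.68 and stood at 0.02 again at 120 min. A set of 27 measured features has identifiers that begin with NT before a gene name, which the labels do not explain. Their median difference was -0.08, with 19 below 0 (70.4%), and their scores had medians of 0.15 untreated and -0.02 at 30 min. NTYGL178W and NTYDR381W were the lowest, at -0.71 and -0.68, and NTYHR021C the highest, at 0.70.

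Chromosomes differed slightly in the column as a whole. Among features named for ORFs without a Pol III neighbour the median difference ran from -0.08 on chromosome VI to 0.11 on chromosome IX, with 0.09 on chromosome III and -0.05 on chromosomes V and VII. Delta element YARCdelta8, covered by 5 features, gave -1.12, -0.83, 0.37, 0.37 and -0.63, so that its features did not share one direction. Of 8 delta elements covered by more than one feature, 6 had the same sign in the first and last feature.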
